A study of Mus musculus with 6 samples.

Results

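The neurofilament and synuclein genes typical of projection neurons, which send long axons to other brain regions, are described here in 2 mice, in the parvafox nucleus and, from the same brains, in cerebral cortex and hippocampus. The 8 genes are *Nefh*, *Nefm*, *Nefl*, *Ina*, *Prph*, *Sncb*, *Sncg* and *Thy1*, out of 22180 genes that had at least 1 probe set with a single gene symbol. They were chosen by name, with earlier results of these data known, and each was read from its brightest such probe set over the 6 arrays. All 8 had exactly 1. The values by region belong to the choice and are therefore given as a description, without a test.

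The parvafox nucleus lies in the lateral hypothalamus and is known for its parvalbumin neurons. It was cut out by laser-capture microdissection from mouse 355 and mouse 511, together with piriform and entorhinal cortex and the hippocampal fields CA2 and CA3. There were thus 3 regions with 2 arrays each. The mice were adult and carried no transgene or treatment by the labels, which give the strain C57BL/6 for 5 of the 6 samples. No strain is given for the nucleus of mouse 511, which came from the same animal as the cortex and hippocampus of mouse 511. The authors name C57BL/6 for the mice used on the arrays. The pieces held all cells of the tissue, glia included, so that fewer cells of a type and less RNA per cell cannot be told apart. RNA was amplified and hybridised to Affymetrix Mouse Gene 2.0 ST arrays, and all levels below are log2 RMA signals, on which 1 unit is a 2-fold difference. The median of the arrays lay between 3.54 and 3.68 and their brightest probe set between 13.53 and 13.57.

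Neurofilaments are the intermediate filaments of neurons. They are built from a light, a medium and a heavy chain (*Nefl*, *Nefm* and *Nefh*), joined in the central nervous system by α-internexin (*Ina*) and in peripheral and some central neurons by peripherin (*Prph*), and they fill large myelinated axons and set their calibre. Synucleins are small proteins of presynaptic terminals, of which β-synuclein (*Sncb*) is widespread in the forebrain and γ-synuclein (*Sncg*) is best known from sensory, motor and retinal ganglion neurons. *Thy1* encodes a lipid-anchored glycoprotein of the surface of projection neurons and of T cells.

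The sequences upstream of the start sites of *Sncg* and *Sncb* are shown because these 2 genes of one family lay on opposite sides in the nucleus. Promoters were at hand for 4 of the 8 genes (*Sncg*, *Sncb*, *Prph* and *Ina*). They are RefSeq sequences of build GRCm38.p6, 250 bases long, from chr14:34374670-34374919 (minus strand) for *Sncg* and chr13:54766596-54766845 (minus strand) for *Sncb*, and capitals mark the motifs that were searched.
Sncg: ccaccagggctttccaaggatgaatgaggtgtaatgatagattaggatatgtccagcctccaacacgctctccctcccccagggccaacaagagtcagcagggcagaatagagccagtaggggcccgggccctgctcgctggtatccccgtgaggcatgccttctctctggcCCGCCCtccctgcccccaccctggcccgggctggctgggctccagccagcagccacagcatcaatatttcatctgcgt
Sncb: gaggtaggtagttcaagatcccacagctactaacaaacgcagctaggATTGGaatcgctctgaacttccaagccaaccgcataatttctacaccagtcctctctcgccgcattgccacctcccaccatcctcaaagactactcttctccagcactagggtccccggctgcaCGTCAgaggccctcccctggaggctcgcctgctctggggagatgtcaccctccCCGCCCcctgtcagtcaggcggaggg
The searched motifs were the TATA box (TATAAA), the GC box (GGGCGG), the CCAAT box (CCAAT) and the core of the cyclic AMP response element (TGACG), on both strands, and none of them holds the letters of another. *Sncg* held 1 GC box and *Sncb* held 1 GC box, 1 CCAAT box and 1 such core. *Prph* held 1 TATA box and 1 GC box, whereas *Ina* held 2 GC boxes. Of all 32851 promoters of the same length, 12.4% held the TATA box, 32.7% the GC box, 33.8% the CCAAT box and 17.8% the response element core. G and C made up 61.6% of the bases in *Sncg*, 58.8% in *Sncb*, 65.2% in *Prph* and 70.8% in *Ina*.

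In some markers, though not in others, the cortex of mouse 355 went against its label and stood apart from that of mouse 511. *Neurod6*, a transcription factor of principal neurons, had 5.27 there and 9.28 in the cortex of mouse 511, against 8.14 and 8.81 in hippocampal tissue and 3.13 and 3.26 in the nucleus. *Tbr1*, another such factor, had 4.4 there and 6.03 in the cortex of mouse 511. *Slc17a6*, the vesicular glutamate transporter of subcortical neurons, had 8.24 there and 6.24 in the cortex of mouse 511. It had 10.18 and 9.53 in the nucleus and 4.29 and 6.28 in hippocampal tissue. *Slc17a7*, the transporter of principal neurons, was close between these cortices, at 9.51 and 9.96. Other genes of principal neurons were also closer between the cortices than *Neurod6* and *Tbr1*, and above both nucleus arrays. These were *Camk2a* (10.39 and 10.75), *Nrgn* (10.71 and 11.35) and *Ddn* (7.39 and 7.83). All these genes were named after their values were seen. The same array held the highest signals of *Nefh*, *Nefm*, *Nefl*, *Prph* and *Thy1*, and the part of its tissue content in them was not tested. Values of mouse 511 alone, given beside those of mouse 355 throughout, do not use this array.

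Of the 8 genes, *Sncg* was the one that stood out in the nucleus. The nucleus of mouse 355 gave 7.67 and that of mouse 511 gave 6.12, against cortical signals of 6.10 and 4.69 and hippocampal signals of 5.23 and 5.15 in the same mice. Both nucleus arrays lay above the other 4, although the lower of them was nearly level with the higher cortical one. Within a mouse, the nucleus was above the cortex by 1.57 in mouse 355 and 1.43 in mouse 511, which is 2.97-fold and 2.69-fold, with a mean of 1.5 ± 0.10 (SD, n = 2). Against the hippocampus the differences were 2.44 and 0.97, or 5.44-fold and 1.96-fold, with a mean of 1.71 ± 1.04 (SD, n = 2). The mice thus differed in the size of the second difference and were close in the first. The cortex averaged 5.39 ± 1.00 and the hippocampus 5.19 ± 0.06 (SD, n = 2 each), and these means were closer to each other than the spread of the cortex.

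**Figure D1:**
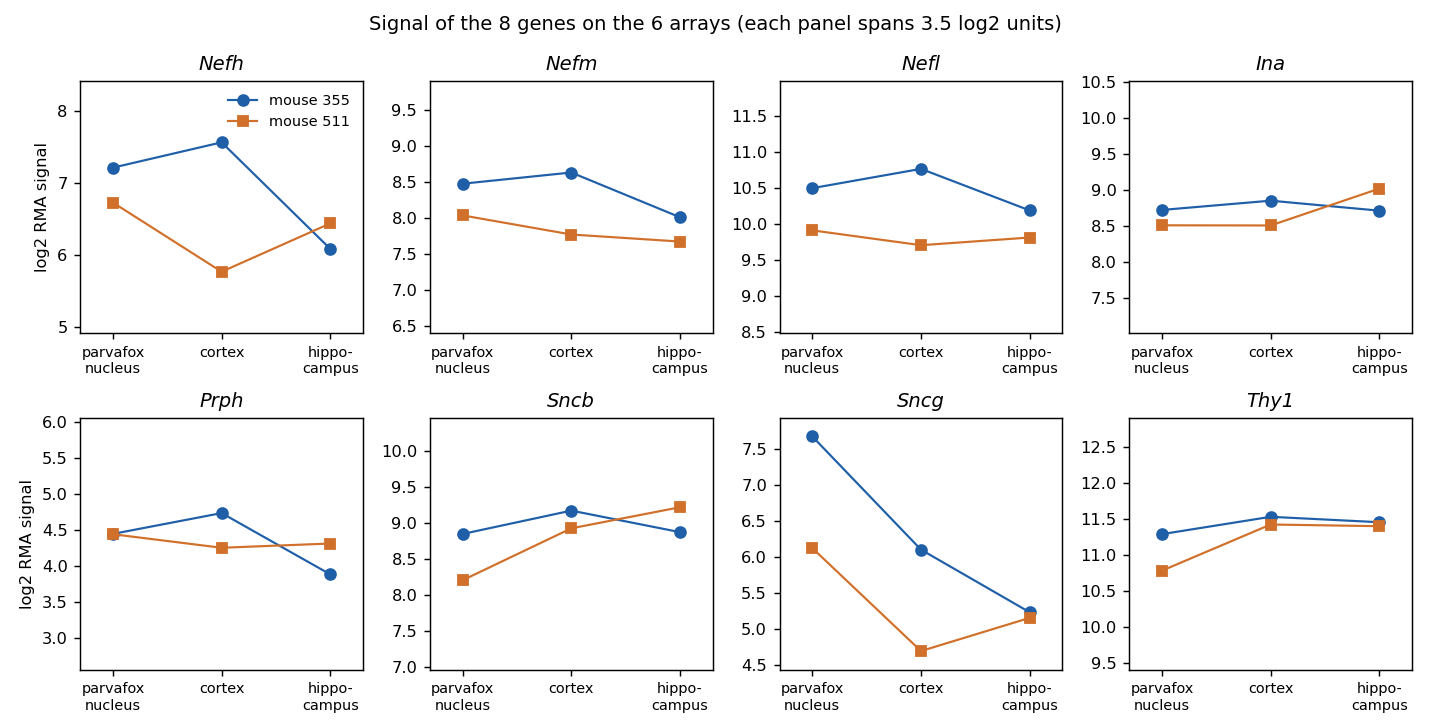
Log2 RMA signal of each of the 8 genes (vertical axis, each panel spanning 3.5 log2 units) in the parvafox nucleus, cortex and hippocampus (horizontal axis), with 1 point per array and a line for each mouse. *Sncg* is highest in the nucleus of both mice (7.67 and 6.12), *Sncb* and *Thy1* are lowest there, and the lines of *Nefh* cross between cortex and hippocampus.

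β-Synuclein lay on the other side. *Sncb* had a signal of 8.85 and 8.20 in the nucleus, against 9.17 and 8.93 in cortical and 8.87 and 9.22 in hippocampal tissue (mouse 355, then mouse 511, as in all such pairs below). Both nucleus arrays were below the other 4. The within-mouse differences from the cortex were -0.32 and -0.72, and those from the hippocampus -0.03 and -1.01, with means of -0.52 ± 0.28 and -0.52 ± 0.70 (SD, n = 2 each). Cortex and hippocampus averaged 9.05 ± 0.17 and 9.05 ± 0.24 and could not be ordered.

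*Thy1* followed the same order. It reached 11.30 and 10.79 in the nucleus, against 11.54 and 11.43 in cortical and 11.46 and 11.41 in hippocampal tissue. Nucleus minus cortex was -0.24 and -0.64, nucleus minus hippocampus -0.17 and -0.62, and cortex minus hippocampus 0.08 and 0.02. The nucleus was thus the lower region in both mice, and cortex and hippocampus were close to level. The 6 measured T cell markers averaged between 2.96 and 3.5 on all 6 arrays, below the median of every array.

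The neurofilament triplet did not separate the nucleus from the cortex. *Nefh*, the heavy chain, had 7.22 and 6.73 in the nucleus, against 7.57 and 5.77 in cortical and 6.09 and 6.45 in hippocampal tissue. Its cortex value was the highest of the 6 arrays in mouse 355 and the lowest in mouse 511. Nucleus minus cortex was therefore -0.35 in mouse 355 and 0.96 in mouse 511, with a mean of 0.30 ± 0.93 (SD, n = 2). Against the hippocampus, the nucleus was above by 1.13 and 0.29, or 2.19-fold and 1.22-fold.

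*Nefm*, the medium chain, had 8.48 and 8.04 in the nucleus, against 8.64 and 7.78 in cortical and 8.02 and 7.68 in hippocampal tissue. *Nefl*, the light chain on which the polymer is built, had 10.50 and 9.91, against 10.77 and 9.70 and 10.19 and 9.81 in the same order. In both genes the cortex was highest in mouse 355, and in mouse 511 the nucleus was highest. Nucleus minus cortex was -0.16 and 0.27 for *Nefm* and -0.27 and 0.21 for *Nefl*, so that the mean of either (0.05 ± 0.30 and -0.03 ± 0.34, SD, n = 2 each) was smaller than its spread. Nucleus minus hippocampus was 0.47 and 0.36 for *Nefm* and 0.31 and 0.10 for *Nefl*, above 0 in both mice and below 1.5-fold in each. *Nefl* and *Nefm* are neighbours on chromosome 14, with 0 protein-coding genes between them in GRCm38.p6, and their profiles over the 6 arrays were the closest of the 28 pairs among the 8 genes, with a root mean square difference of 0.11 after each gene was centred on its mean. The next closest pair was *Sncb* and *Thy1* at 0.14, and the farthest was *Sncb* and *Sncg* at 1.10.

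The partner chains had values on both sides. *Ina* had 8.73 and 8.52 in the nucleus, against 8.86 and 8.51 in cortical and 8.72 and 9.03 in hippocampal tissue. Its values spanned 0.51 over the 6 arrays, the narrowest span of the 8 genes. Nucleus minus cortex of *Ina* was -0.13 and 0.00, and nucleus minus hippocampus 0.01 and -0.51. *Prph* had 4.44 in the nucleus of both mice, against 4.73 and 4.25 in cortical and 3.88 and 4.31 in hippocampal tissue. Nucleus minus cortex of *Prph* was -0.29 and 0.19, and nucleus minus hippocampus 0.56 and 0.13, where the regions did not overlap. The signals of *Prph*, 3.88 to 4.73, were low and not far above the array medians of 3.54 to 3.68.

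**Figure D2:**
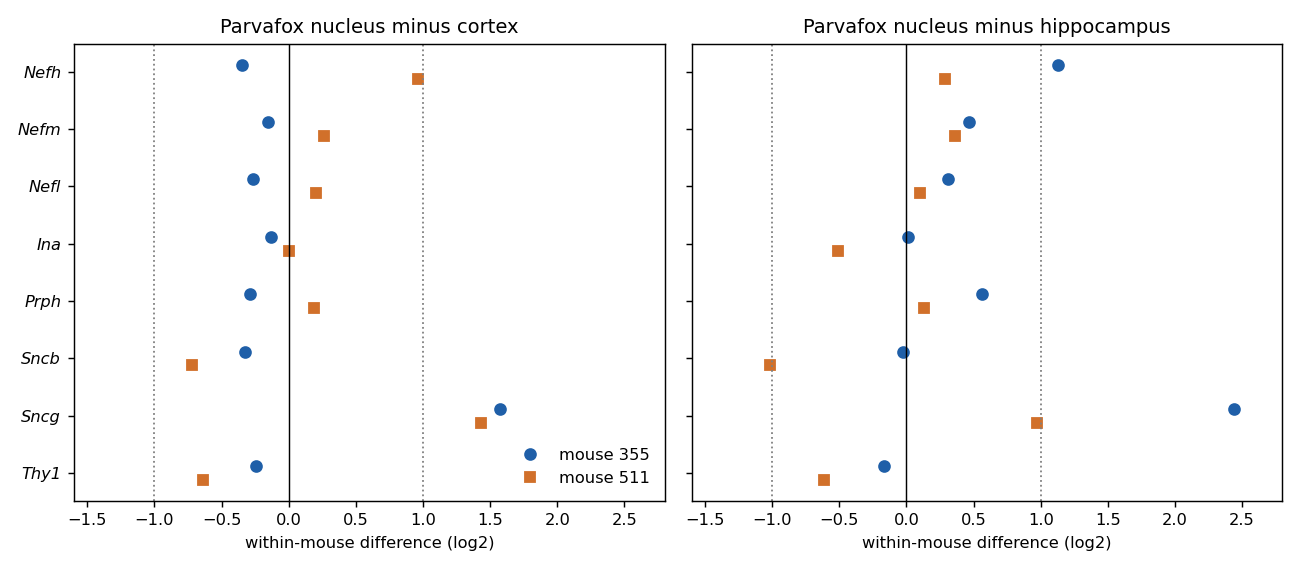
Within-mouse difference in log2 RMA signal (horizontal axis) of each of the 8 genes (rows), for the parvafox nucleus minus the cortex (left) and minus the hippocampus (right), with 1 point per mouse. Dotted lines mark a 2-fold difference. *Sncg* is past it in both mice on the left (1.57 and 1.43) and in mouse 355 on the right (2.44), where mouse 511 is just inside (0.97).

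By the rule that both mice differ at least 2-fold in the same direction, 1 of the 8 genes was higher in the nucleus than in the cortex, *Sncg*, and 0 were lower. Over all 22180 genes these shares were 0.415% and 0.956%. Against the hippocampus 0 genes were higher and 0 lower, where 0.987% and 1.52% of all genes were. *Sncg* missed this rule by its value in mouse 511 (0.97), *Nefh* by that in mouse 511 (0.29, against 1.13 in mouse 355) and *Sncb* by that in mouse 355 (-0.03, against -1.01 in mouse 511). Between cortex and hippocampus 0 genes were higher in the cortex and 0 lower, against 0.307% and 0.198% of all genes. Counted by whether the arrays of the regions overlapped, 1 gene lay above the cortex in the nucleus (*Sncg*) and 2 below it (*Sncb* and *Thy1*), against 18.8% and 18.1% of all genes. Above the hippocampus lay 4 (*Nefh*, *Nefm*, *Prph* and *Sncg*) and below it 2 (*Sncb* and *Thy1*), against 21.5% and 18.9%. For cortex against hippocampus it was 0 and 0, against 17.3% and 15.6%. The median difference of the 8 genes was -0.04 for nucleus minus cortex, where that of all genes was 0.01, and 0.28 for nucleus minus hippocampus, where that of all genes was 0.02. Since the genes were chosen with these contrasts known, nothing is read from these shares.

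Markers of neurons averaged below the other regions in the nucleus, as did *Sncb* and *Thy1* but not *Sncg*. The 10 genes of neurons in general, such as *Snap25* and *Syt1* of the presynaptic terminal, averaged 8.99 and 8.52 in the nucleus, against 9.24 and 9.43 in cortical and 9.11 and 9.49 in hippocampal tissue. As with *Sncb* and *Thy1*, the nucleus of mouse 511 was lowest. In nucleus minus cortex, 0 of the 10 were above 0 in both mice and 7 were below it, against 27.9% and 26.5% of all genes. Of the 10, 1 was lower by at least 2-fold in both mice, *Syt1* (-1.08 and -2.21). In nucleus minus hippocampus, 0 were above 0 in both mice and 5 were below it, against 30.0% and 26.6% of all genes. The list averaged -0.13 and -0.96 in that difference, with *Elavl3*, for example, at 0.70 and -0.35. The triplet differed from this list. Its mean was 8.73 and 8.23 in the nucleus, against 8.99 and 7.75 in cortical and 8.10 and 7.98 in hippocampal tissue. Relative to the neuron list, nucleus minus cortex of the triplet was -0.01 in mouse 355 and 1.38 in mouse 511, and nucleus minus hippocampus was 0.76 and 1.21. The part of the neuron content in these differences was not tested.

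Oligodendrocytes make the myelin around large axons. Their 9 measured markers averaged 9.02 and 8.99 in the nucleus, against 8.70 and 8.23 in cortical and 6.35 and 7.13 in hippocampal tissue. All 9 had more signal in the nucleus than in the hippocampus in both mice, and 8 of them at least 2-fold in both, *Mobp* for example by 2.28 and 2.41. The hippocampus was thus the region with the least myelin signal. It was also the one in which *Nefh*, *Nefm*, *Nefl*, *Prph* and *Sncg* averaged lowest over the 2 mice. The other members did not share this order. *Ina* averaged highest in the hippocampus (8.87, against 8.62 in the nucleus and 8.69 in the cortex). *Sncb* and *Thy1* averaged lowest in the nucleus (8.53 and 11.04, against 9.05 and 11.43 in the hippocampus). In mouse 511 alone, however, the cortex was below the hippocampus for *Nefh* (5.77 against 6.45) and *Sncg* (4.69 against 5.15). The same held for *Nefl* (9.70 against 9.81) and *Prph* (4.25 against 4.31), but not for *Nefm* (7.78 against 7.68). Oligodendrocyte markers were higher in that cortex than in that hippocampus (8.23 against 7.13). The part of myelin in these differences was not tested. Of the other cell types, astrocyte markers averaged 7.5 and 7.9 in the nucleus, against 7.4 and 6.9 in cortical and 7.3 and 7.1 in hippocampal tissue. Microglial markers averaged 6.71 and 6.65 in the nucleus, against 6.90 and 7.37 in cortical and 7.14 and 7.43 in hippocampal tissue, and endothelial markers stayed between 5.79 and 6.01 on all arrays.

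The nucleus was checked against its own markers and those of the other regions. Neither list was made to tell cortex from hippocampus. The 8 measured genes of principal neurons of cortex and hippocampus averaged 5.28 and 4.97 in the nucleus, against 7.24 and 8.38 in cortical and 8.08 and 8.29 in hippocampal tissue. In nucleus minus cortex 6 of them, and in nucleus minus hippocampus 7, were at least 2-fold down in both mice. The 10 hypothalamic genes averaged 6.42 and 5.33 in the nucleus, against 4.63 and 4.24 in cortical and 3.87 and 4.09 in hippocampal tissue. Of these, 8 were above 0 in both mice in either nucleus difference. Of all genes, 27.9% were so against the cortex and 30.0% against the hippocampus. The exceptions were *Hcrt* (nucleus minus cortex 0.20 and -0.21) and *Cartpt* (0.00 and -2.96). The mean of the 10 hypothalamic genes and the signal of *Sncg* were both higher in the nucleus of mouse 355 than in that of mouse 511. The part of the hypothalamic content in *Sncg* was not tested.

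**Figure D3:**
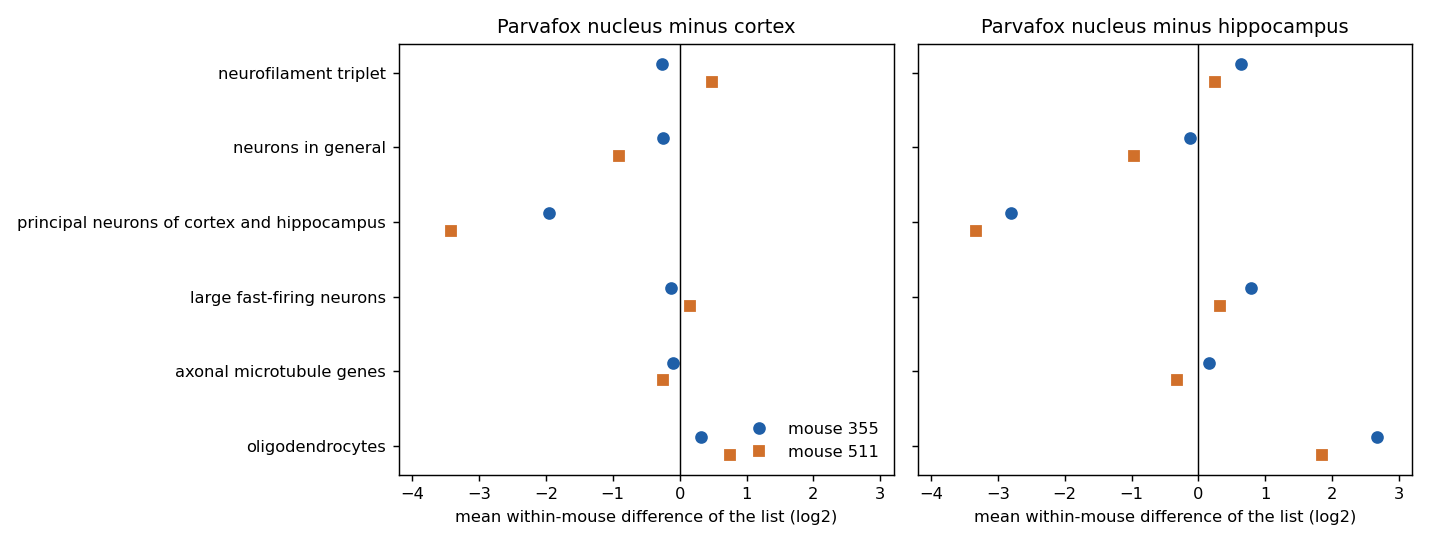
Mean within-mouse difference in log2 RMA signal (horizontal axis) of the neurofilament triplet and of 5 gene lists (rows), for the parvafox nucleus minus the cortex (left) and minus the hippocampus (right), with 1 point per mouse. The triplet lies on either side of 0 on the left (-0.26 and 0.48) and above it on the right (0.63 and 0.25), while neurons in general are below 0 in both mice and oligodendrocyte genes are far above 0 against the hippocampus (2.67 and 1.85).

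Genes that share work with neurofilaments were examined next, with a limma fit that had mouse and region as factors and Benjamini-Hochberg adjustment over all 41345 probe sets. That fit called 0% of the probe sets between nucleus and cortex, 0.00242% between nucleus and hippocampus, which is the single probe set of *Pmch*, the precursor of melanin-concentrating hormone (difference 6.98, SE 0.23, adjusted p = 0.0495 by limma), and 0% between cortex and hippocampus. The call of *Pmch* was lost with an intensity trend, with arrays centred on their medians and with any 1 array left out. At an unadjusted p under 0.05 the shares were 7.89%, 9.56% and 4.74%. The gene lists below were also chosen with earlier results of these data known. Their counts at an unadjusted p are therefore a description. *Pmch* was named after its value was seen.

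Large fast-firing neurons, many of them parvalbumin-positive, are rich in neurofilaments and carry a known set of channels and release proteins. Of their 11 measured genes, limma called 0 after adjustment in any region comparison. At an unadjusted p under 0.05, 4 were higher in the nucleus than in the hippocampus (*Scn4b*, *Vamp1*, *Syt2* and *Scn1a*) and 1 was lower (*Cplx1*), while against the cortex 0 were higher and 1 was lower (*Kcna1*), and 2 were higher in cortex than in hippocampus (*Scn4b* and *Vamp1*). The list's median was -0.08 against the cortex and 0.37 against the hippocampus. *Vamp1*, a vesicle SNARE of fast synapses, had 8.70 and 8.23 in the nucleus, against 8.73 and 6.72 in cortical and 6.47 and 5.92 in hippocampal tissue. *Pvalb*, encoding parvalbumin itself, had 7.91 and 7.70 in the nucleus, against 7.95 and 5.74 in cortical and 7.0 and 6.78 in hippocampal tissue. In both, as in *Nefh*, the cortex of mouse 511 was well below that of mouse 355, the array in which *Neurod6* and *Tbr1* were low. The 11 genes averaged 7.31 and 6.70 in cortical tissue, but not all of them fell. *Scn4b* (6.20 and 6.96) and *Scn8a* (6.72 and 7.04) went the other way, and *Cplx1* was nearly level (9.03 and 8.95). The part of the tissue content of that array was not tested.

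The linkers, kinases and turnover genes of neurofilaments gave 14 measured genes, of which limma called 0 after adjustment in each comparison. At an unadjusted p under 0.05, 0 were higher in the nucleus and 1 was lower, against either other region. This was in both cases *Cdk5r1*, the activator of a kinase that phosphorylates the tails of *Nefh* and *Nefm*, at 7.04 and 7.12 in the nucleus, against 7.81 and 7.74 in cortical and 7.70 and 7.72 in hippocampal tissue. Its groups did not overlap. The next widest differences of this list were those from the hippocampus of *Myo5a*, a myosin motor (-0.21 and -0.72), *Dync1h1*, the heavy chain of dynein (-0.07 and -0.85), and *Dctn1* of the dynactin complex (-0.26 and -0.64), none of which had an unadjusted p under 0.05. The list's median was -0.16 against the cortex and -0.21 against the hippocampus.

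Microtubule genes of the axon gave 17 measured genes with 0 calls after adjustment. At an unadjusted p under 0.05, 0 were higher in the nucleus and 1 was lower, *Crmp1*, against either region. It encodes a collapsin response mediator that binds tubulin and had 7.41 and 6.78 in the nucleus, against 8.22 and 8.16 in cortical and 8.21 and 8.11 in hippocampal tissue. The next widest differences were those of *Tubb4a* from the cortex (-0.25 and -0.78) and of *Tubb2a* (-0.31 and -0.68) and *Map1b* (-0.05 and -0.90) from the hippocampus, and none had an unadjusted p under 0.05. The first 2 encode β-tubulins and the third a microtubule-associated protein. The list's median was -0.14 against the cortex and 0.06 against the hippocampus.

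A further list held intermediate filaments that are best known from other cells, and *Sncaip*, which encodes a partner protein of synuclein. Of its 6 measured genes, 0 were called after adjustment, and at an unadjusted p under 0.05 1 differed, *Gfap*, which was lower in cortex than in hippocampus. *Gfap*, the filament of astrocytes, had 6.69 and 7.38 in the nucleus, against 5.86 and 6.02 in cortical and 8.54 and 7.28 in hippocampal tissue. *Des* (desmin of muscle cells; nucleus minus cortex -0.12 and -0.96), *Synm* (synemin, -0.03 and -0.78) and *Vim* (vimentin, -0.64 and -0.17) were below the cortex in both mice without passing the test. The list's median was -0.38 against the cortex and -0.46 against the hippocampus.

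Since the choice of the genes rested on the regions, the difference between the 2 mice could be tested. With 1 animal on each side, the p-values measure the spread over 3 regions and not over animals. Mouse 511 was below mouse 355 in all 3 regions for 4 of the 8 genes (*Nefm*, *Nefl*, *Sncg* and *Thy1*). That was so for 16.9% of all probe sets. For *Nefl*, mouse 511 minus mouse 355 was -0.59 (nucleus), -1.06 (cortex) and -0.38 (hippocampus), with a limma estimate of -0.67 (SE 0.20, adjusted p = 0.783). For *Nefm* the differences were -0.44, -0.86 and -0.34 in the same regions (limma estimate -0.55, SE 0.18, adjusted p = 0.783). *Sncg* gave -1.55, -1.41 and -0.08 (limma estimate -1.01, SE 0.34, adjusted p = 0.783). These 3 genes had an unadjusted p under 0.05 and 0 passed the adjusted threshold. Without the cortex of mouse 355, the limma estimates were -0.48 for *Nefl*, -0.39 for *Nefm* and -0.81 for *Sncg*, with an adjusted p of 0.901 each, and 0 of the 8 genes had an unadjusted p under 0.05. Of all probe sets 6.24% had such an unadjusted p, and 0% were called after adjustment.

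The other 5 genes did not reach an unadjusted p under 0.05. *Nefh* gave -0.48 (nucleus), -1.80 (cortex) and 0.35 (hippocampus) (limma estimate -0.64, SE 0.43, adjusted p = 0.810), and its estimate without the cortex of mouse 355 was -0.07 (SE 0.30). *Thy1*, *Sncb*, *Ina* and *Prph* had limma estimates of -0.22, -0.18, -0.08 and -0.02. The median of the 8 genes was -0.38 and that of all probe sets -0.02. The cortex held the widest drop in 5 of the 8 genes, and the nucleus in *Sncb*, *Sncg* and *Thy1*. The mice also differed in *Kdm5d*, a gene of the Y chromosome, which was higher in mouse 511 by 3.0 (nucleus), 2.29 (cortex) and 2.94 (hippocampus). Sex and the individual mouse cannot be told apart.

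**Figure D4:**
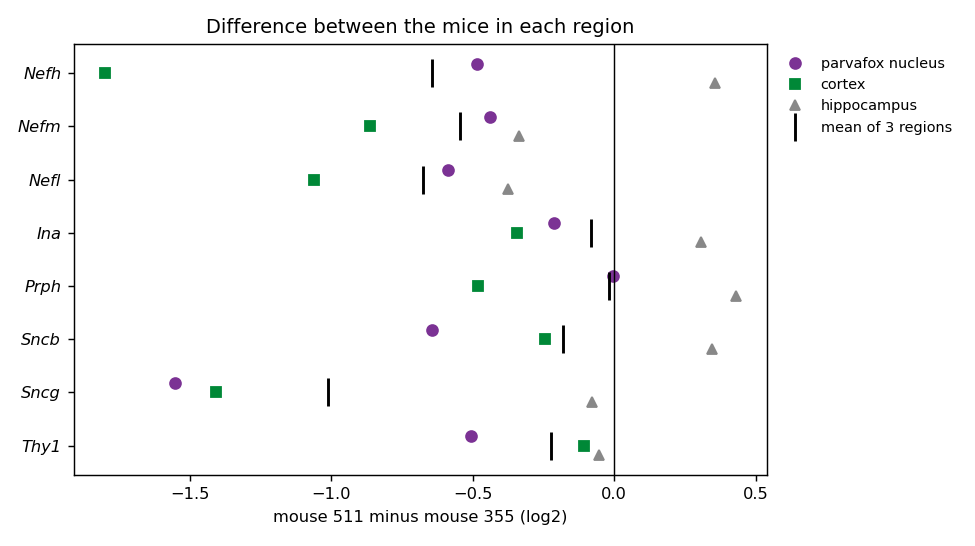
Difference in log2 RMA signal between mouse 511 and mouse 355 (horizontal axis) for each of the 8 genes (rows), in the parvafox nucleus, cortex and hippocampus (points), with the mean of the 3 regions as a bar. *Nefm*, *Nefl*, *Sncg* and *Thy1* are below 0 in all regions, and the hippocampus is above 0 for the other 4 genes.

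For the 4 genes whose signals spanned at least 1 log2 unit (*Nefh*, *Nefl*, *Sncb* and *Sncg*), the genes with the most alike profiles were sought among 5816 others that also spanned 1 unit. Likeness was the root mean square difference of the centred values over the 6 arrays. For *Sncg* the closest were *Adssl1* (0.28), *Plpp2* (0.29) and *Supt3* (0.30). *Adssl1* had 6.77 and 5.85 in the nucleus, against 5.74 and 4.49 in cortical and 4.63 and 5.10 in hippocampal tissue. For *Nefh* they were *Fat2* (0.18), *Krt31* (0.21) and *Tmem74b* (0.22), of which only *Tmem74b* had a signal above 5 on 5 of the 6 arrays. For *Nefl* they were *Chodl* (0.08), *Jph2* (0.09) and *Gm11827* (0.10), all below 4.6 on each array. For *Sncb* they were *Errfi1* (0.07), *Cyth2* (0.07) and *Rprm* (0.08). Such closeness over 6 values is a description of these arrays.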

How the data were processed

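Tissue of the parvafox nucleus, cortex and hippocampus was taken from the 2 of 6 mice with the best-preserved RNA, after the nucleus had been located on neighbouring sections with a lectin. The authors amplified the RNA by whole-transcriptome amplification, hybridised it to Mouse Gene 2.0 ST arrays and normalised it by RMA in Affymetrix Expression Console 1.2.1.20. The file deposited by the authors holds a log2 signal for each of 41345 probe sets and 6 arrays, used as given. R 2.14.2, Partek and limma are also named in the submitters' processing notes. The genome build of the array annotation is not given in the sources used here. RMA makes the distributions of the arrays alike, so that a shift common to all genes of a sample is lost. The number of arrays limits the precision.

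In the platform annotation, 23521 probe sets had 1 gene symbol, 1820 had several and 16004 had none. Probe sets with several symbols name no gene here, and 1 of them named one of the 8 genes beside another gene. The 8 genes matched GRCm38.p6 by gene ID. For each of 22180 genes, the brightest probe set was used. Differences were taken within each mouse and averaged over the 2 mice with their SD.

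Group comparisons across all probe sets used limma 3.58.1 in R 4.3.3 with the mouse as a block, 2 residual and 2.77 prior degrees of freedom and Benjamini-Hochberg adjustment at 0.05. The scripts were tested on simulated data. The samples of 1 number came from 1 animal, which sets the pairing. The mouse deviations of the regions correlated across probe sets by 0.08, 0.06 and 0.06. The members and all 12 gene lists were chosen with earlier results of these data known. Of their 126 list genes, 12 were not analysed here. The text names the 8 genes, from each list of related genes up to 4 with the widest nucleus difference, and for each gene spanning 1 log2 unit the 3 with the most alike profiles. Further list genes are named as examples, after their values were seen. Alternatives were other scalings (array median, cyclic loess, *Actb*), other folds, other probe set filters, no block or a random block, and each mouse or array left out (for the estimates between the mice, added after the data were seen). Python 3.11.15 was used for the remaining steps.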

Additional observations from a re-analysis of the deposited data

Results flagged for a closer look

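The 2 mice lay on opposite sides for *Nefh* in cortex minus hippocampus, at 1.48 in mouse 355 and -0.67 in mouse 511. It was singled out because each mouse differed by more than 1.5-fold and in opposite directions. The value of mouse 355 uses the cortex array in which *Neurod6* and *Tbr1* were low, and the part of that array was not tested. The difference between the mice was not tested, as each mouse has 1 array per region.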

How the results depend on the processing

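With 2 mice, a single animal decides most values. Without one mouse, the count of genes past 2-fold was 1 to 1 for nucleus above cortex, 0 to 2 for nucleus above hippocampus, 0 to 1 for nucleus below hippocampus (*Sncb* in mouse 511) and 0 to 1 for cortex above hippocampus. *Sncg* passed the 2-fold rule against the hippocampus after cyclic loess, after subtraction of *Actb* or at a fold of 1.5, which made that count 1 in place of 0, and at a fold of 3 the count against the cortex was 0. Subtracting *Actb* moved nucleus minus cortex of every gene by 0.17 in mouse 355 and 0.57 in mouse 511. The sign of 6 of the 24 mean differences changed under some scaling, the widest of which was 0.20. *Nefm* in mouse 355 became 0.02 in place of -0.16 against the cortex. In the nucleus, *Sncg*, *Sncb* and *Thy1* kept their sign in both mice under each scaling, but with *Actb* subtracted the mean difference from the cortex was -0.15 in place of -0.52 for *Sncb* and -0.07 in place of -0.44 for *Thy1*.

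In limma, the fit without the replicate block called 6 probe sets between nucleus and cortex and 20 between nucleus and hippocampus, as did the random block, in place of 0 and 1. With probe sets of 1 symbol the counts were 8 and 34, and above the median signal 1 and 3. For nucleus against hippocampus, an intensity trend or centring gave 0, and with each array left out the counts were 0 to 0. Cortex against hippocampus and the mice gave 0 throughout. The causes were not tested. With each array left out in turn, added after the data were seen, mouse 511 minus mouse 355 was -0.28 to 0.0466 for *Ina*, -0.24 to 0.21 for *Prph* and -0.44 to 0.0499 for *Sncb*, and below 0 each time for the other 5 genes.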
